A study of Homo sapiens with 2 samples.

Results

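The data cover 9 genes for surface proteins with which activated B cells stimulate or restrain T cells: CD80, CD86, CD70, CD27, CD83, CD274, PDCD1LG2, SLAMF1 and TNFSF9. They were chosen by name, and every probe set whose platform annotation gave exactly 1 gene symbol among these names was taken, which gave 15 probe sets and the 9 genes of 16716 genes measured. Messenger RNA was measured in 2 samples of a human lymphoblastoid line, that is, a B-cell culture immortalised with Epstein-Barr virus (EBV). Titles and labels write the line as GM06690 and the growth protocol writes it as GM06990. Both samples form 1 group, replicates 1 and 2, of cells that had received no treatment named in the labels and grew in RPMI1640 with fetal calf serum, penicillin-streptomycin and L-glutamine. As a model the group is 1 cell line that carries the virus, with no uninfected or resting B cell beside it. Each sample was hybridised to 1 Human Genome U133 Plus 2.0 array. The labels do not state whether the replicates were separate cultures, and the spread given here may therefore be technical.

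T cells need a signal through their antigen receptor and a further signal from the presenting cell. The B7 family ligands CD80 and CD86 supply it through CD28 and withdraw it through CTLA4, ligands of the TNF superfamily such as CD70 and TNFSF9 prolong it, and the B7 relatives CD274 and PDCD1LG2 (PD-L1 and PD-L2) restrain it through the receptor PD-1. EBV-transformed B cells are known for an activated surface on which several of these ligands are displayed, and the CD27 and CD70 pair is known for its part in the T-cell control of EBV-infected B cells.

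Values are log2 RMA signals, where RMA is a method that corrects background, equalises the distributions of the arrays and summarises the probes of a set. A gene is represented by its brightest probe set, and mean ± SD is over both arrays (n = 2). Probe sets differ in affinity, so signals are not compared between genes as amounts of transcript. A gene counted as above background when it exceeded, on each array, the 95th percentile of 86 reference genes known for their restriction to liver, brain, muscle, eye and other tissues, which lay at a log2 signal of 5.04 in replicate 1 and 5.03 in replicate 2. By this rule 8 of the 9 genes (88.9%) and 13 of their 15 probe sets (86.7%) lay above background, where 57.6% of all genes and 53.3% of all probe sets with 1 symbol did. The exception was PDCD1LG2. The 9 genes were chosen as proteins of activated B cells, with earlier results of these data known, so these shares only describe them. All 9 encode proteins, while all genes include non-coding ones and pseudogenes, so the shares are not like for like. As a description of probe set signals, the median over the 9 genes was 10.18 and over all genes 6.10, and with the mean of each gene's probe sets in place of the brightest these were 9.03 and 5.57. With 1 group there was no contrast between conditions and no test.

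**Figure D1:**
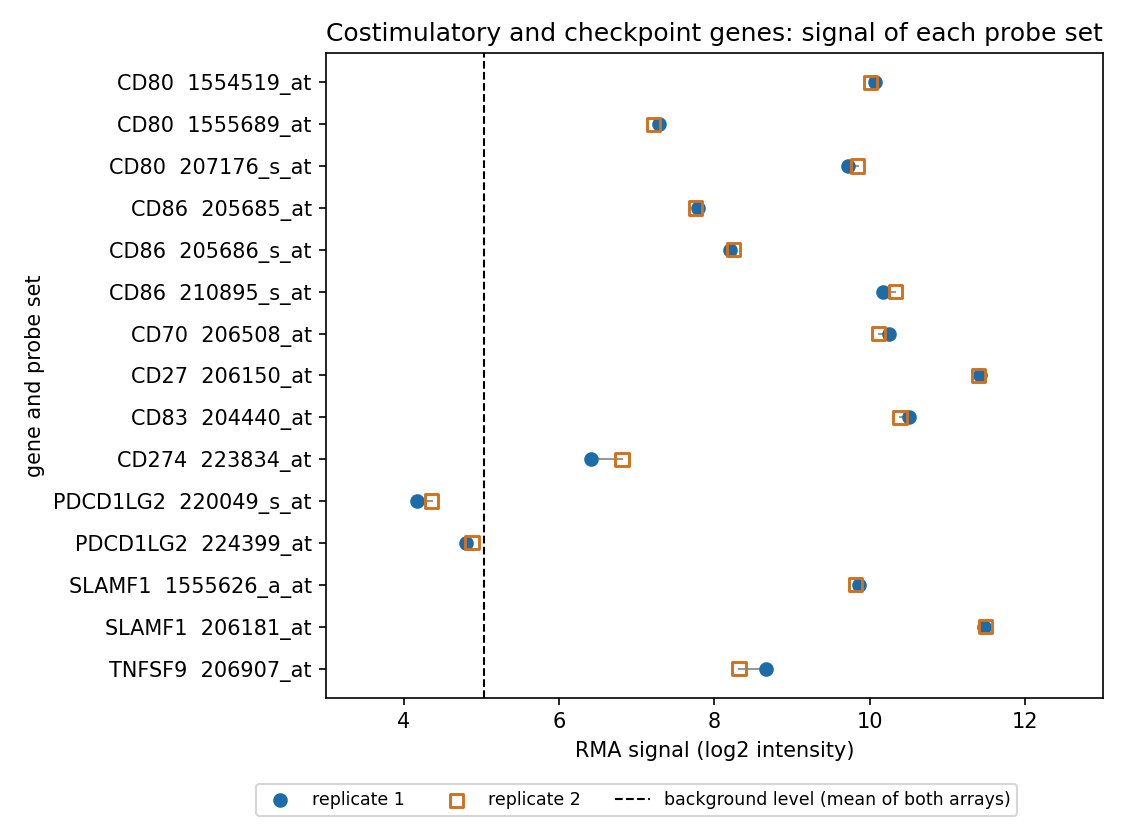
Signal of each of the 15 probe sets (rows) on the log2 intensity scale, with a filled circle for replicate 1, an open square for replicate 2 and a dashed line at the background level. Both PDCD1LG2 probe sets lie left of the line on both arrays and the other 13 lie right of it, with CD274 the nearest at 6.41 and 6.81.

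Both ligands of CD28 gave a signal well over the level on both arrays. CD80 (Entrez gene 941), also called B7-1, had a log2 signal of 10.07 in replicate 1 and 10.01 in replicate 2 (10.04 ± 0.04). All 3 of its probe sets were above background: 1554519_at, which represents the gene, 207176_s_at with 9.73 and 9.85, and 1555689_at with 7.29 and 7.22. The replicates thus lay within 0.12 of each other for every CD80 probe set, while the probe sets themselves spanned 2.79. CD86 (gene 942), or B7-2, had 10.17 and 10.33 by probe set 210895_s_at (10.25 ± 0.11). Its other probe sets read 8.20 and 8.25 (205686_s_at) and 7.79 and 7.75 (205685_at), a span of 2.48 between the dimmest and the brightest. The call for CD86 therefore held by each of its 3 probe sets, but its signal was 7.77 when probe sets ending in _s_at and _x_at, which can match several transcripts, were left out.

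The reference sequence before the start of CD86 is shown because it is 1 of the member promoters that hold the NF-kB consensus, the site of the factor family that CD40 and the viral protein LMP1 are known to activate. RefSeq (GRCh38.p14) gives 2 starts for the gene, and the stretch is the 250 bases before the downstream start, chr3:122077534-122077783 on the plus strand, with the consensus match in capitals, 82 bases before the start.
CD86: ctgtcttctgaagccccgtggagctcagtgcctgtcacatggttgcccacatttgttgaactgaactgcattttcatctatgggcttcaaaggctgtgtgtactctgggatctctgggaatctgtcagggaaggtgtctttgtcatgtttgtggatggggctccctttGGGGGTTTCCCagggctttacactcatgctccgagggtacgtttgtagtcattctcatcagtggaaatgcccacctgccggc

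CD83 (gene 9308) encodes an immunoglobulin superfamily protein of activated B cells and mature dendritic cells, which is known to keep CD86 and MHC class II on the surface. Its 1 probe set, 204440_at, read 10.51 in replicate 1 and 10.39 in replicate 2 (10.45 ± 0.08), a linear intensity of 1460 and 1344. Both arrays were more than 5 above the level on the log2 scale, at 5.47 and 5.36. The 250 bases before the downstream of its 2 RefSeq starts, chr6:14117522-14117771 on the plus strand (GRCh38.p14), are shown because they hold 3 separate stretches matching the NF-kB consensus, again in capitals. They begin 134, 76 and 51 bases before the start.
CD83: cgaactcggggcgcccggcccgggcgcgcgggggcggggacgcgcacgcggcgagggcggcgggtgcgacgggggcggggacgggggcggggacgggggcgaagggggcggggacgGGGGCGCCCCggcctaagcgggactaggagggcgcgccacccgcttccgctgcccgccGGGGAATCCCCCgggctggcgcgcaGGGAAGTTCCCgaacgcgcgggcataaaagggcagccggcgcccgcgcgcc

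The receptor CD27 and its ligand CD70 were both above background in this culture. CD27 (gene 939), a TNF receptor superfamily member that marks memory B cells, had a log2 signal of 11.43 in replicate 1 and 11.40 in replicate 2 (11.41 ± 0.02, probe set 206150_at). CD70 (gene 970), a TNF superfamily protein found mainly on activated lymphocytes, had 10.25 and 10.11 (10.18 ± 0.10, probe set 206508_at). Each has 1 probe set among those used, and each exceeded the log2 level by more than 5 on each array. A messenger RNA signal does not show how much of either protein reached the surface.

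TNFSF9 (gene 8744), the ligand of the T-cell receptor CD137, was above background with a wider gap between the arrays. Its probe set 206907_at read 8.67 in replicate 1 and 8.32 in replicate 2 (8.49 ± 0.25), intensities of 407 and 319. The 250 bases before its start, chr19:6530776-6531025 on the plus strand (GRCh38.p14), are shown because, like those of CD274, they hold the letters of the interferon-stimulated response element (ISRE), GAAA, any 2 bases and GAAA, to which interferon regulatory factors bind; here the match, in capitals, begins 194 bases before the start.
TNFSF9: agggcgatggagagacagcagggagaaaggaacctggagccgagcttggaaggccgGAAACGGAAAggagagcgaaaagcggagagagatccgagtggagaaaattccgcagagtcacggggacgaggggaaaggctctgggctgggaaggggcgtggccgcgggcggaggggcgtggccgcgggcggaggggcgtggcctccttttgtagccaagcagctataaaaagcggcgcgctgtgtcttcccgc

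The ligands of PD-1 differed in their calls. CD274 (gene 29126), which encodes PD-L1, had a log2 signal of 6.41 in replicate 1 and 6.81 in replicate 2 (6.61 ± 0.28, probe set 223834_at), intensities of 85.2 and 112. It exceeded the level by 1.37 and 1.78, the smallest margin among the 8 genes called, and it stayed above the 99th percentile of the tissue-restricted genes (5.73 and 5.71). PDCD1LG2 (gene 80380), which encodes PD-L2, had 4.80 and 4.88 by its brighter probe set 224399_at (4.84 ± 0.06) and 4.17 and 4.36 by 220049_s_at. Neither of its probe sets passed the level on either array, and the brighter lay 0.25 and 0.16 below it. At the 75th percentile of the tissue-restricted genes (4.45 and 4.34) the brighter PDCD1LG2 probe set was above background and all 9 genes were called; its call therefore turned on the level chosen. A gene not above the level may still be transcribed.

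The 250 bases before the CD274 start, chr9:5450292-5450541 on the plus strand (GRCh38.p14), hold a 16-base stretch of 2 overlapping ISRE matches on the opposite strand, in capitals, that begins 208 bases before the start. They also hold the letters TTCNNNGAA, the site of STAT factors, 125 bases before the start.
CD274: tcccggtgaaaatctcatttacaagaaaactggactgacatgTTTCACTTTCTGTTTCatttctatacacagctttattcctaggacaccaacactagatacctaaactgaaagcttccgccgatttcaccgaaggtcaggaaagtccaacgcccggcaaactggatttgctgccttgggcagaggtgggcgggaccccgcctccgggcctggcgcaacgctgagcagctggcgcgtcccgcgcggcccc

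SLAMF1 (gene 6504), or CD150, is a receptor that binds its own kind on a neighbouring cell and is also the entry receptor of measles virus. Its probe set 206181_at read 11.47 in replicate 1 and 11.49 in replicate 2 (11.48 ± 0.01). The other, 1555626_a_at, read 9.86 and 9.82, so both were above background on both arrays. The arrays differed by 0.02 and 0.04 for these probe sets, less than for most members.

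Matches to 8 motifs were searched on both strands of the 250 bases before each start. RefSeq promoters were matched by symbol for 7 of the 9 genes, with 9 starts, as CD83 and CD86 have 2 each; CD70 and PDCD1LG2 were not among them. The NF-kB consensus was found before 2 of the 9 starts, where 9.96% of 35116 promoters of all genes hold it. The ISRE letters (GAAA, any 2 bases, GAAA) were found before 2 of 9, with 3.02% of all promoters, and the STAT letters TTCNNNGAA before 1, with 6.57%. The AP-1 letters TGANTCA were found before CD27 alone among the members, 236 bases before its start, with 6.57% of all promoters. The TATA box TATAAA was found before 2 member starts (10.7% of all promoters), and in TNFSF9 it began 30 bases before the start. The GC box GGGCGG was found before 3 (42.6%), 5 of its matches being in the CD83 stretch printed above. Neither GTGGGAA, the site of the Notch and EBNA2 partner RBPJ (5.43% of all promoters), nor the EBF1 site of TCCC, any 2 bases and GGGA (1.06%) occurred in these windows. No stretches of different motifs overlapped. The windows of CD80, of SLAMF1 and of the upstream CD86 start held none of the 8 motifs. Base composition differed among the members as well: G and C made up 83.2% of the CD83 window printed above, with 46 CG pairs, against 34% and 2 CG pairs before the upstream CD86 start and a median of 58% and 11 CG pairs over all promoters. A match describes letters and is not evidence of binding.

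**Figure D2:**
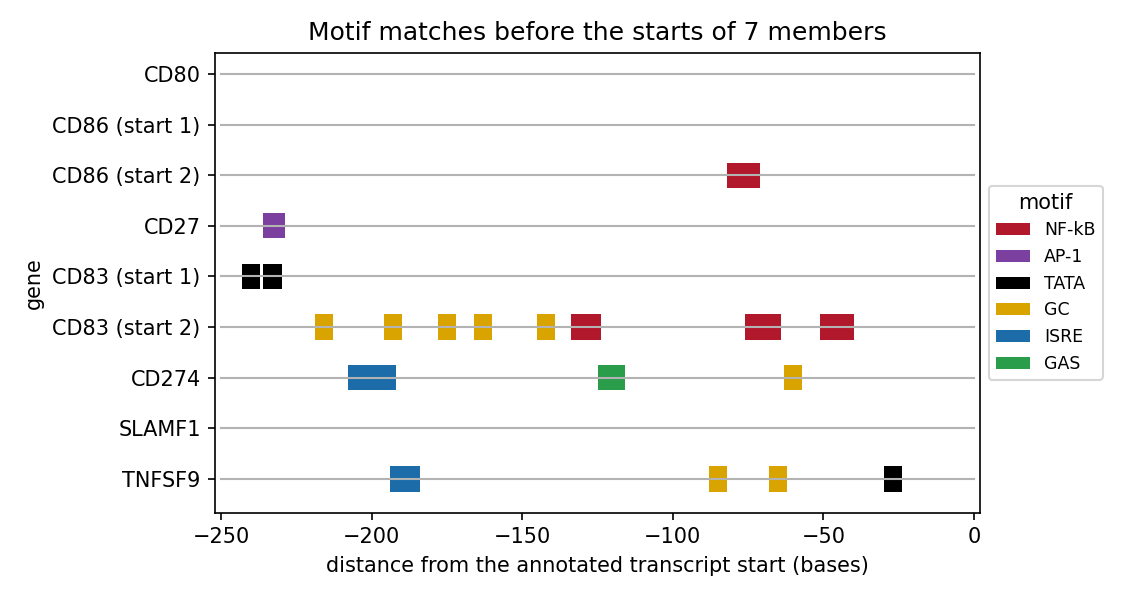
Positions of motif matches (coloured bars) in the 250 bases before each of 9 annotated starts (rows), with the distance from the start in bases on the horizontal axis. The downstream CD83 start has 3 NF-kB stretches and 5 GC boxes, and 3 windows have no match.

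Of 4 measured binding partners of the members, 2 were above background (50%, beside 57.6% of all genes). These were CD28, by a small margin, and RGMB, by 2.13 and 2.16 on the log2 scale. CD28 had 5.61 and 5.19 (5.40 ± 0.29), with 1 of 3 probe sets above; it lost its call at the 99th percentile, with a level taken from olfactory receptor genes, and with the mean of its probe sets. RGMB, a further partner of PD-L2, had 7.17 and 7.20 (7.18 ± 0.02). CTLA4, the inhibitory receptor of CD80 and CD86, had 4.29 and 4.51, and TNFRSF9, the receptor of TNFSF9 that is also called CD137, had 4.78 and 4.86. Neither CTLA4 nor TNFRSF9 passed the level on any array. PDCD1 was not analysed here.

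Relatives and pathway genes of the members gave mixed calls, apart from the signalling genes. In 8 lists of partners and pathway genes, 41 of 62 measured genes (66.1%) lay above background, beside the 57.6% of all genes. The lists hold protein-coding genes only, and all genes include non-coding ones and pseudogenes. Their shares here and below are thus not like for like. The other B7 and CD28 family genes had 4 of 7 above (57.1%), near the share of all genes. These were ICOSLG, the ligand of ICOS (7.18 and 6.81), the ligands CD276 (5.20 and 5.28) and VSIR (5.48 and 5.44), and the butyrophilin BTN2A2 (9.07 and 8.88). VTCN1 (3.79 and 3.50), HHLA2 (3.72 and 3.64) and the T-cell receptor ICOS (4.20 and 3.91) were not above. CD276 and VSIR, like CD28, were not above the 99th percentile of the reference genes. CD276 was above by 1 of 3 probe sets and VSIR by 1 of 2, and CD276 lost its call with the mean of its probe sets.

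Costimulatory ligands of the TNF superfamily other than CD70 and TNFSF9 were above background in 2 of 5 cases (40%, beside 57.6% of all genes). TNFSF4, the OX40 ligand, had 9.32 and 9.69 (9.50 ± 0.27), and TNFSF14, also called LIGHT, had a mean of 8.07 ± 0.11. TNFSF8 (4.44 and 4.01), TNFSF18 (4.11 and 4.48) and TNFSF15 (3.85 and 4.13) were not above. Costimulatory receptors of the TNF receptor superfamily, CD40 included, were above in 3 of 6 cases (50%, beside the same 57.6%). CD40, through which T-cell help reaches the B cell, had 10.22 and 10.26, TNFRSF14 had 8.87 and 8.77, and TNFRSF8, or CD30, had a mean of 9.04 ± 0.06. TNFRSF4 (4.78 and 4.51), TNFRSF18 (4.50 and 4.20) and TNFRSF25 (4.43 and 4.63) were not.

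Around SLAMF1, 6 of 9 measured SLAM family and adaptor genes were above background (66.7%, beside 57.6% of all genes). CD48 had 13.10 and 13.05, its receptor CD244 had 6.06 and 6.13, and LY9 had 6.89 and 6.37 (6.63 ± 0.37). CD84, SLAMF6 and SLAMF7 were above as well, with mean signals of 6.44, 9.08 and 11.75. For CD84 only 1 of 6 probe sets was above, and it lost its call with the mean of its probe sets. The adaptor SH2D1A (SAP), through which SLAM receptors signal in T cells and NK cells, had 4.40 and 4.24 and was not above by any of its 4 probe sets. Its relative SH2D1B (3.97 and 4.13) and SLAMF8 (4.31 and 4.38) were not above either.

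Other checkpoint and adhesion genes were above background in 10 of 15 cases (66.7%, beside 57.6% of all genes). CD58, an adhesion ligand of T cells, had 12.29 and 12.27, whereas its T-cell receptor CD2 had 3.84 and 3.96. ICAM1, a ligand of the integrin LFA-1, had 9.41 and 9.44. The receptors CD226 (7.92 and 7.99), CD96 (5.89 and 6.13), LAG3 (5.75 and 5.56) and CD200R1 (6.03 and 5.62) were above, unlike CD2. PVR, LGALS9, CD200 and CD47 were above as well. The genes not above on both arrays were CD2, NECTIN2, HAVCR2, SIRPA and CEACAM1, with mean signals from 3.90 to 5.02, and NECTIN2 exceeded the level in replicate 1 alone. LAG3 and CD200R1 lost their calls at the 99th percentile, and PVR and CD200R1 lost theirs with the mean of their probe sets.

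Signalling genes downstream of CD27, CD40 and CD137 were above background in 9 of 9 measured cases, beside 57.6% of all genes. TRAF2, a further gene of this list, was not analysed here. The adaptors TRAF1, TRAF3 and TRAF5 had mean signals of 11.11, 9.13 and 9.03, and the NF-kB subunit genes NFKB1, NFKB2, RELA, RELB and REL ranged from 6.40 to 10.76. Genes that handle or induce the members' products were above in 5 of 7 cases (71.4%, beside the same 57.6%). CMTM6, which keeps PD-L1 from being degraded, had 11.59 and 11.62, while its relative CMTM4 (4.62 and 5.02) was not above. The ubiquitin ligase MARCHF1, which removes CD86 from the surface, was not above (3.75 and 3.73), and its relative MARCHF8 was (8.88 and 8.67). JAK2 (8.69 and 8.92) and IRF1 (9.38 on both arrays), which carry the interferon gamma signal to CD274, were above background.

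**Figure D3:**
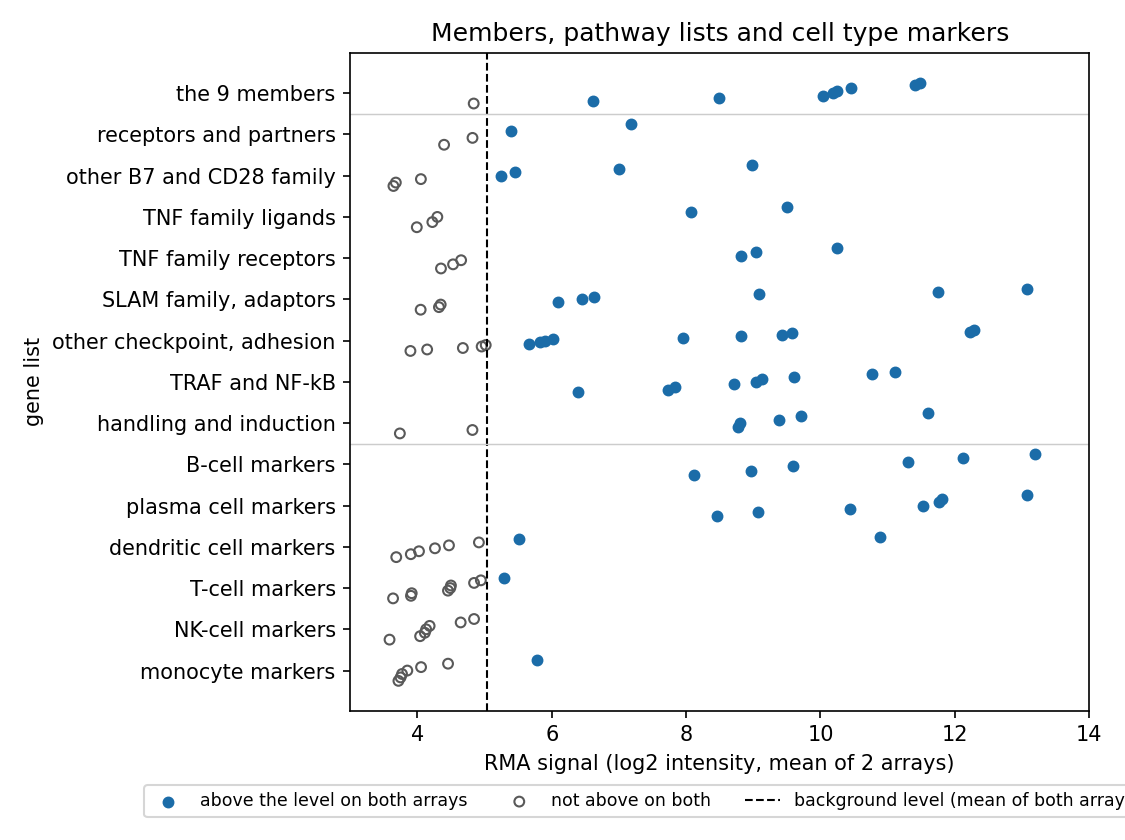
Mean log2 signal of both arrays for each measured gene (points) of the 9 members, of 8 lists of partners and pathway genes, and of 6 cell type marker lists (rows); filled points passed the background level on both arrays, open points did not, and the dashed line is the level. The TRAF and NF-kB genes, the B-cell markers and the plasma cell markers all lie right of the line, and the NK-cell markers all lie left of it.

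Several members lie beside each other or beside relatives, by the RefSeq gene order. CD274 and PDCD1LG2 are direct neighbours on chromosome 9 with opposite calls, and the genes that flank the pair, PLGRKT (9.81 and 9.86) and RIC1 (9.94 and 9.89), were both above background. TNFSF9, CD70 and TNFSF14 follow each other on chromosome 19, and all of them were above background, while TUBB4A next to TNFSF9 was not (4.62 and 4.34). SLAMF1 lies between CD84 and CD48 on chromosome 1, and all 3 were above, CD84 by 1 of its 6 probe sets. CD27 on chromosome 12 lies between LTBR, which was not above (4.25 and 4.21), and TAPBPL, which was (8.91 and 8.58). On chromosome 3 CD80 has TIMMDC1 (10.60 and 10.70) and PLA1A (8.83 and 8.53) as its nearest measured neighbours, whereas CD86 has ILDR1 (5.14 and 5.47), just above the level, and CASR (4.89 and 5.04), above it in replicate 2 alone. CD83 on chromosome 6 has MCUR1 (10.74 and 10.70) and JARID2 (8.41 and 8.32). In all, 11 of the 14 distinct neighbours that are no members (78.6%) were above background, beside 57.6% of all genes. These shares are not like for like, since only protein-coding genes were taken as neighbours and all genes include non-coding ones and pseudogenes. TNFSF14, CD84 and CD48 were also counted in the lists of relatives.

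The replicate arrays gave nearly the same signal for most members. The difference (replicate 2 minus replicate 1) was under 0.2 in size for 7 of the 9 genes, among them 6 of the 8 above background. The exceptions were CD274 with 0.40, a ratio of 1.32 in favour of replicate 2, and TNFSF9 with -0.35, a ratio of 1.28 in favour of replicate 1. None of the 9 genes passed a difference of 0.58, against 1.14% of the 10049 genes that passed the level on 1 array or both, and 2 of 9 passed 0.3, against 8.5%. Across those genes the median size of the difference was 0.08 and the 90th percentile 0.28, while the median over the 9 members was higher, at 0.12. PDCD1LG2, counted among the 9, passed the level on neither array and is thus not 1 of the 10049 genes. The sets compared here therefore differ. Of the same 10049 genes, 4.48% differed by at least as much as CD274 and 5.97% by at least as much as TNFSF9. In all, 5 members were higher in replicate 1 and 4 in replicate 2, so the 9 did not move together. For CD80, CD86 and SLAMF1 the sign of the difference varied between probe sets of the same gene.

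**Figure D4:**
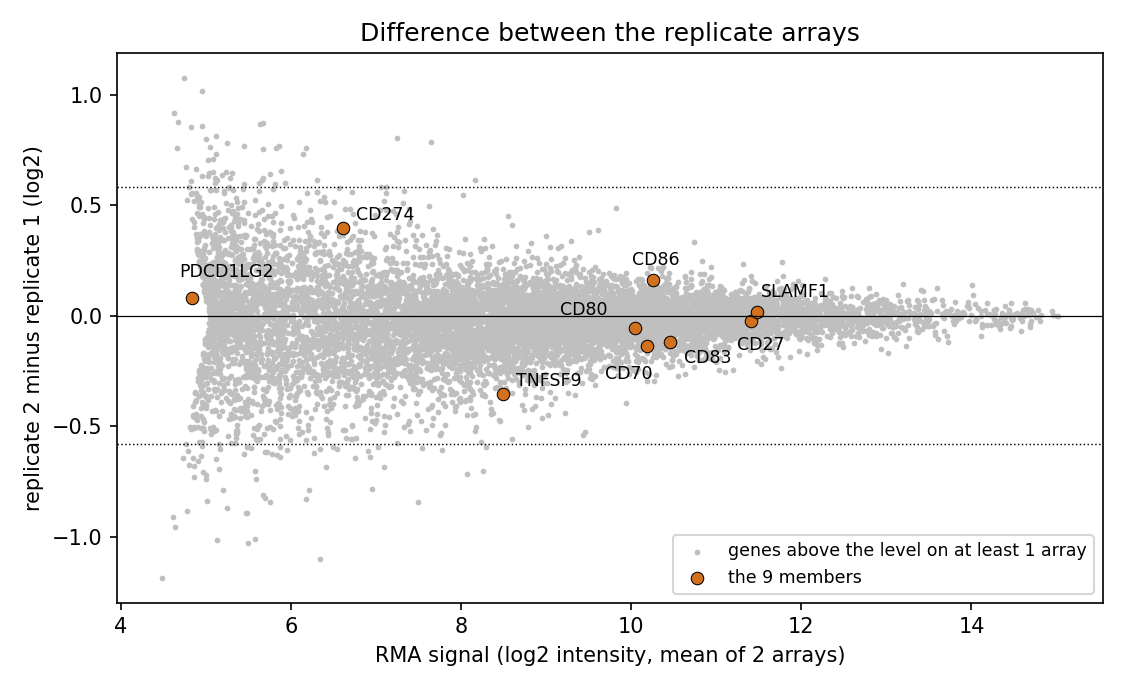
Difference between the arrays (replicate 2 minus replicate 1, log2) against mean log2 signal, for genes above background on at least 1 array (grey) and the 9 members (orange, PDCD1LG2 being below the level); dotted lines mark differences of 0.58. CD274 and TNFSF9 lie farthest from 0, on opposite sides, and no member passes the dotted lines.

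Markers of the B lineage were above background and those of other blood cells mostly were not. All 6 measured B-cell markers were above background, with MS4A1, which encodes CD20, at 13.12 and 13.26, CD79A at 11.32 and 11.27 and CD79B at 9.62 and 9.55, and so were all 7 plasma cell markers, with means from 8.46 to 13.08. Members such as CD80, CD86, CD83 and CD70 are also made by dendritic cells or T cells, so markers of these cells were read as well. Of 9 T-cell markers 1 was above, CD4 (5.52 and 5.07), and CD3D (5.09 and 4.80), which was above in replicate 1 alone, CD3E (4.51 and 4.46) and CD3G (4.56 and 4.43) were not above on both. CD4 exceeded the level by 0.47 in replicate 1 and 0.04 in replicate 2, with 1 of its 2 probe sets above. Of 8 dendritic cell markers 2 were above, LAMP3 (10.92 and 10.86), which activated B cells can also express, and CD1C (5.59 and 5.43), while FCER1A (3.67 and 3.70) and CD207 (3.87 and 3.93) were not. Of 7 monocyte markers S100A9 was above (5.66 and 5.89), while CD14 (3.82 and 3.72), LYZ (3.72 on both arrays) and CSF1R (3.85 on both arrays) were not. None of CD4, CD1C and S100A9 exceeded the 99th percentile of the reference genes (5.73 and 5.71) on both arrays. None of 7 NK-cell markers was above, with NCAM1 at 4.79 and 4.89, KLRD1 at 4.19 and 4.07 and NKG7 at 4.13 and 4.23. A part of such cells in the members' signals was not tested. In a bulk culture such as this, fewer cells that express a gene and less messenger RNA per cell cannot be told apart.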

How the data were processed

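The authors deposited 1 table of probe set intensities, made with RMA per the submitters' processing notes; its version and a genome build are not given in the sources used here. The values ran from 6.29 to 33093, too high for the log2 scale on which RMA commonly reports, so they were taken as linear and converted to log2. Values of 36289 probe sets were analysed here, and a gene can have further probe sets on the array. The platform annotation gave 1 gene symbol for 29493 of them, several for 1407 and none for 5389, and 29461 with 1 symbol were matched to RefSeq (GRCh38.p14) through the Entrez ID and took its symbol. Median intensities were 33.2 and 33.3, and the number of arrays limits the precision. Quantile normalization in RMA would hide a change in total messenger RNA.

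A gene took its probe set with the highest mean. The background level came from 95 tissue-restricted genes written for this work, of which 86 were measured. The computation of calls and differences was checked on simulated data with genes set well away from the level. That check cannot tell whether calls of genes near the level are right. The 9 genes and all lists were chosen with earlier results of these data known. Named genes are all members with their probe sets, all measured binding partners, the first 3 genes and up to 5 not above background of each other list, the markers above background and the first 3 of each marker list of other cell types, and the nearest measured neighbours; further names were added after their values were seen. Python 3.11.15 with numpy 2.4.6 and pandas 2.3.3 was used.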

Additional observations from a re-analysis of the deposited data

How the results depend on the processing

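The count of 8 of 9 genes above background held under every alternative run except the 75th percentile level, where it was 9 with PDCD1LG2, and the count of probe sets was between 13 and 14 of 15, or 10 of 11 without _x_at and _s_at probe sets. Averaging a gene's probe sets gave a signal of 9.03 for CD80, 8.75 for CD86, 4.55 for PDCD1LG2 and 10.66 for SLAMF1, and a median over members of 9.03. Without _x_at and _s_at probe sets, CD86 was at 7.77 and the median at 10.04. Leaving out 1 array gave a median between 10.11 and 10.17. A minimum difference of 0.3 in place of 0.58 gave 2 genes in place of 0, and a minimum of 1 gave 0. The 41 of 62 partner and pathway genes above background became 47 of 62 (75.8%) at the 75th percentile, 36 of 62 (58.1%) both at the 99th and with averaged probe sets, and, once _x_at and _s_at probe sets were left out, 32 of 51 (62.7%), beside 67.2% (75th percentile), 51.9% (99th), 56.0% (averaged) and 50.8% (left out) of all genes. Among their lists, the binding partners fell from 2 to 1 at the 99th percentile, with olfactory receptor genes as the reference and with the mean of probe sets, each time without CD28. The other B7 and CD28 family genes fell from 4 to 2 at the 99th percentile, without CD276 and VSIR. With the mean of probe sets they fell to 3, without CD276. Other checkpoint and adhesion genes fell from 10 to 8 of 15 at the 99th percentile, without LAG3 and CD200R1. With the mean of probe sets these also had 8, without PVR and CD200R1. At the 75th percentile they had 13, and 7 of 12 once _x_at and _s_at probe sets were left out. Without _x_at and _s_at probe sets the TNF superfamily ligands had 1 of 4 above and the genes of handling and induction 3 of 5. Calls of genes near the level, such as PDCD1LG2 and CD28, are limited by the signal over background.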
